A study of Caenorhabditis elegans with 6 samples.

Results

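The *cah* genes of *C. elegans* form the alpha class of its carbonic anhydrase family. All 6 of them, *cah-1* to *cah-6*, were found by their gene symbols among the 46778 gene identifiers of the count tables. The counts came from RNA of whole young adults kept at 20 °C without starvation. There were 3 libraries of wild type animals (N2) and 3 of *vhl-1* mutants carrying the null allele *ok161*, a germline mutation of the worm gene for the VHL tumor suppressor. Apart from *vhl-1*, no allele, transgene or treatment was named for either group. The replicates were described as biological, without a statement that they were separate cultures, so the spread between them may be partly technical. RNA of whole animals cannot tell a change in each cell from a change in the number of cells that express a gene.

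Carbonic anhydrases interconvert carbon dioxide and water with bicarbonate and a proton, and the active enzymes of the alpha class hold a zinc ion in their active site. Whether each *cah* gene encodes an active enzyme was not examined here. Carbonic anhydrases serve pH regulation, ion transport and the supply of bicarbonate to carboxylases. VHL-1 is the substrate receptor of a ubiquitin ligase that marks the transcription factor HIF-1 for degradation once the prolyl hydroxylase EGL-9 has modified it, so that HIF-1 accumulates in *vhl-1* mutants. In human cells the carbonic anhydrase gene *CA9* is a well-known target of HIF and a marker of clear cell renal cell carcinoma, and in the worm *cah-4* is counted among the HIF-1 targets. The question addressed here was whether *cah-4* stood apart from its paralogs when wild type animals and *vhl-1* mutants were compared.

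Among the 6 carbonic anhydrase genes, *cah-4* was the most strongly expressed in both genotypes, and it was the gene that rose in *vhl-1* mutants, to 2.21 times its wild type mean. The other 5 genes did not pass the test, which called 1.25% of all genes tested, and the ratios of their genotype means lay between 0.819 for *cah-5* and 1.22 for *cah-2*. The reads of *cah-4* made up 57.6% ± 1.01 (SD, n = 3) of all reads on the family in wild type animals and 75.5% ± 0.115 (SD, n = 3) in *vhl-1* mutants.

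The libraries were checked first. Total reads on genes lay between 52462303 and 82910026 per library. *vhl-1* itself had between 373 and 501 reads in the wild type libraries and at most 7 in the mutant libraries. Of 16596 genes tested with edgeR's quasi-likelihood test, 207, or 1.25%, had an adjusted p-value under 0.05, and 0.874% of all tested genes were called higher in *vhl-1* mutants. The second *vhl-1* library and the first wild type library lay at opposite ends in oocyte and yolk transcripts. The summed expression of 10 oocyte and eggshell genes was 406 CPM (the count scaled to the library by the TMM method) in the former. The other 5 libraries had 652 to 2083 CPM, with the first wild type library highest. The 6 yolk protein genes *vit-1* to *vit-6* summed to 796 CPM in the second *vhl-1* library, against 3213 to 17322 CPM in the others. Here too the first wild type library was highest. It also had the lowest sum over 10 larval cuticle and molting genes, 2914 CPM, against 5039 to 6981 CPM in the others. The sums over the oocyte and eggshell, yolk, and larval cuticle lists and over 9 sperm genes overlapped between the genotypes. Every gene on the 4 lists had reads. Each of the 6 yolk protein genes nevertheless had a lower fitted level in *vhl-1* mutants, with a log2 fold change between -2.22 and -1.31 and a median of -1.76. edgeR's test called 0 of them, with *vit-1*, *vit-3* and *vit-4* at an unadjusted p under 0.05, which 9.38% of all tested genes reached. The genotypes did not overlap for these 3 genes, as in 14.4% of all tested genes. DESeq2, which called 3.4% of all genes, called *vit-1* lower. The part of these differences in the results for the *cah* genes was not tested. The log2 fold changes of the *cah* genes, and the contrasts of *cah-4* with *cah-3* and *cah-5*, are given with and without the second *vhl-1* library. The log2 fold change of *cah-4* is also given without the first wild type library.

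The gene *cah-4* (WBGene00000282) lies on the plus strand of chromosome X of WBcel235, from 13542574 to 13544599. Its annotation holds 2 coding transcripts with 6 exons each, which encode proteins of 235 and 280 amino acids. The deposited counts were made per gene and do not separate these isoforms. In the 3 wild type libraries *cah-4* had 160, 172 and 168 CPM, and in the 3 *vhl-1* libraries 323, 437 and 343 CPM. The genotypes did not overlap, as in 14.4% of all tested genes, and the lowest mutant library lay well above the highest wild type library. The means were 167 ± 5.81 CPM in wild type animals and 368 ± 61.2 CPM in *vhl-1* mutants (SD, n = 3 each). This corresponds to a log2 fold change (log2FC) of 1.14 with an SE of 0.13, which passed the test (edgeR, adjusted p = 0.015). DESeq2, which called 3.4% of all genes, gave a log2FC of 1.13 and an adjusted p of 1.19e-09. The direction was the same in the 6 fits that each left out a library, whose log2FC lay between 1.00 and 1.23. However, edgeR's adjusted p rose above the threshold when the second wild type library (0.099), the third wild type library (0.081) or the third *vhl-1* library (0.078) was missing. Without the second *vhl-1* library, in which *cah-4* was highest, the log2FC was 1.00 and the adjusted p from edgeR 0.011. Without the first wild type library the log2FC was 1.11 and the adjusted p from edgeR 0.047. Among all tested genes, 2.02% had a higher log2FC than *cah-4*.

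**Figure D1:**
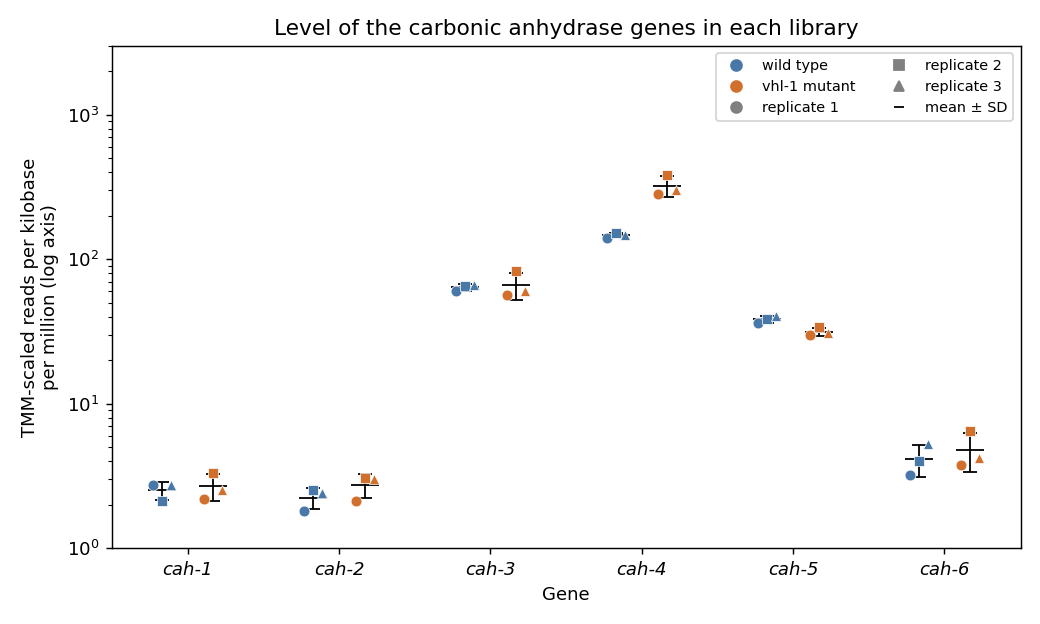
Level of each carbonic anhydrase gene, in TMM-scaled RPKM on a log axis, in 3 wild type (blue) and 3 *vhl-1* mutant (orange) libraries. Symbols mark the replicate, and bars show the mean and SD. *cah-4* lies highest in every library. The genotypes do not overlap for *cah-4* and *cah-5* only, a separation that 14.4% of all tested genes showed.

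*cah-3* (WBGene00000281), also on chromosome X from 16487481 to 16489397, was the second most abundant member. It encodes a protein of 246 amino acids. Its level was 65.1, 70.7 and 71.9 CPM in the wild type libraries and 61.0, 89.1 and 65.6 CPM in the *vhl-1* libraries. The mutant values ran from below to above the wild type range. The log2FC was 0.05 with an SE of 0.15 (edgeR, adjusted p = 1.00), and the 95% interval of the ratio of mutant to wild type level, from a linear model on log2 CPM, ran from 0.734 to 1.43. Without the second *vhl-1* library the log2FC of *cah-3* turned to -0.13.

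*cah-5* (WBGene00000283) was the member whose level was lower in *vhl-1* mutants. It lies on chromosome X from 7020033 to 7023950 and encodes 310 amino acids. It had 39.8, 42.1 and 44.3 CPM in the wild type libraries and 32.7, 37.1 and 33.5 CPM in the *vhl-1* libraries. All mutant libraries lay below all wild type libraries, a separation that 14.4% of all tested genes showed in one direction or the other. The mean in *vhl-1* mutants was 81.9% of that in wild type animals, and the log2FC was -0.29 with an SE of 0.09. This difference had an unadjusted p of 0.018 and did not pass the threshold after adjustment over all genes (edgeR, adjusted p = 0.32, DESeq2, adjusted p = 0.28). The 95% interval of the ratio for *cah-5* ran from 0.715 to 0.938. Across the 6 fits with a missing library it kept a log2FC from -0.34 to -0.25.

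The remaining 3 members were weakly expressed. *cah-6* (WBGene00000284), on chromosome I from 3628246 to 3631112, had 4.59, 5.78 and 7.55 CPM in wild type animals and 5.395, 9.30 and 6.05 CPM in *vhl-1* mutants. Its log2FC was 0.21 with an SE of 0.28 (edgeR, adjusted p = 0.98), with a 95% interval of the ratio from 0.625 to 2.11. The last 22 bases of its exons, 1.53% of their length, overlap the gene *jmjc-1* on the opposite strand. *jmjc-1* had a log2FC of 0.66 (edgeR, adjusted p = 0.55), and its genotypes did not overlap, as in 14.4% of all tested genes. Since the strand setting of the counting was not stated, reads in the 22 shared bases cannot be assigned to one of the genes. No exon of the other 5 members overlaps another annotated gene.

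*cah-1* (WBGene00000279), on the minus strand of chromosome III from 5083206 to 5085629, had 3.04, 2.35 and 3.05 CPM in wild type animals and 2.45, 3.71 and 2.81 CPM in *vhl-1* mutants. Its log2FC was 0.09 with an SE of 0.22 (edgeR, adjusted p = 1.00), and the 95% interval of the ratio ran from 0.697 to 1.59. *cah-2* (WBGene00000280), on the minus strand of chromosome II from 7480751 to 7483109, had 2.16, 3.03 and 2.87 CPM in wild type animals and 2.56, 3.67 and 3.60 CPM in *vhl-1* mutants. Its log2FC was 0.29 with an SE of 0.23 (edgeR, adjusted p = 0.89), and the 95% interval of the ratio ran from 0.788 to 1.88. The genotypes overlapped for *cah-1*, *cah-2* and *cah-6*. Thus 1 of 6 members was called higher and 0 lower by edgeR's test, against 0.874% and 0.374% of all tested genes. Of the 5 that were not called, *cah-5* had an unadjusted p under 0.05 in edgeR's test, which 9.38% of all tested genes reached. DESeq2, which called 3.4% of all genes, called none of the 5 either.

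The spread between replicates was larger than counting error. For *cah-4*, with 8368 to 35590 reads in a library, counting alone gives a coefficient of variation of at most 1.09%, whereas the libraries varied by 3.49% in wild type animals and 16.6% in *vhl-1* mutants. For *cah-1*, with 147 to 302 reads, counting gives at most 8.25% and the libraries varied by 14.2% and 21.7%. The least variable paralog in *vhl-1* mutants was *cah-5*, at 6.70%. Within the mutants the second library was the highest for each of the 6 genes, and the first was the lowest for each of them. Without the second *vhl-1* library, the log2FC of *cah-1* was -0.098, that of *cah-2* 0.20, that of *cah-5* -0.34 and that of *cah-6* -0.058, so that the small differences of *cah-1*, *cah-3* and *cah-6* changed direction while those of *cah-2*, *cah-4* and *cah-5* did not.

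Levels of different genes were compared as RPKM, the CPM divided by the length of the annotated exons in kilobases. In wild type animals *cah-4* had an RPKM of 147 ± 5.12 (SD, n = 3), which was 2.29 times the level of *cah-3*. *cah-3* followed with 64.1 ± 3.34 and *cah-5* with 38.5 ± 2.05. Then came a step of 9.28-fold down to *cah-6*, with 4.15 ± 1.03, followed by *cah-1* with 2.53 ± 0.359 and *cah-2* with 2.24 ± 0.384. The upper 3 genes, all on chromosome X, lay above 82.0% to 94.8% of the tested genes, and the lower 3, on other chromosomes, above 26.5% to 35.7%. In *vhl-1* mutants *cah-4* rose to 324 ± 53.9, which was 4.86 times the level of *cah-3* with 66.6 ± 13.98, and *cah-5* had 31.6 ± 2.12. *cah-6*, *cah-2* and *cah-1* had 4.81 ± 1.45, 2.74 ± 0.520 and 2.69 ± 0.583. In each genotype the libraries of neighbors in this order did not overlap, except for *cah-1* and *cah-2*, whose order switched between the genotypes and whose levels did not differ beyond their spread.

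**Figure D2:**
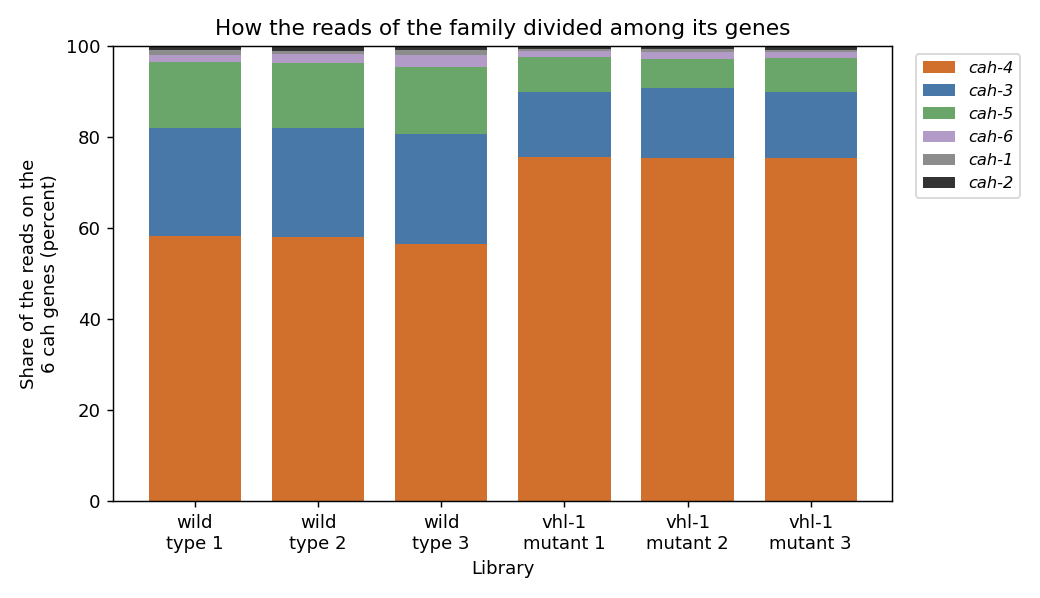
Share of the reads on the 6 carbonic anhydrase genes that fell on each gene, in percent, for each of the 6 libraries. The share of *cah-4* lies between 56.4% and 58.3% in wild type libraries and between 75.4% and 75.6% in *vhl-1* libraries.

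Taken as a whole, the family had 289 ± 12.5 CPM in wild type animals and 487 ± 81.8 CPM in *vhl-1* mutants (SD, n = 3 each). The 5 paralogs of *cah-4* together had 123 ± 7.52 CPM and 120 ± 20.6 CPM. The increase of the family was thus that of *cah-4*. The share of *cah-4* in the family's reads was 58.3%, 58.1% and 56.4% in the wild type libraries and 75.6%, 75.4% and 75.5% in the *vhl-1* libraries. The second *vhl-1* library, which had the highest CPM of *cah-4*, did not stand apart in this share. *cah-3* had 23.9% ± 0.239 of the family's reads in wild type animals and 14.7% ± 0.582 in *vhl-1* mutants, and *cah-5* 14.5% ± 0.320 and 7.14% ± 0.671. A share also moves with the other genes in the total, so these shares are no measure of the level of *cah-3* or *cah-5*.

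The contrast of *cah-4* with each paralog was then tested itself, by the log2 ratio of their reads within a library, which does not depend on how libraries are scaled. For *cah-3* this ratio was 1.30, 1.28 and 1.22 in the wild type libraries and 2.40, 2.29 and 2.39 in the *vhl-1* libraries. The difference between the genotypes was 1.09 (95% interval 0.98 to 1.21), so that *cah-4* rose 2.13-fold relative to *cah-3*. For *cah-5* the ratio was 2.01, 2.03 and 1.92 in wild type animals and 3.30, 3.56 and 3.35 in *vhl-1* mutants, a difference of 1.42 (95% interval 1.18 to 1.66). This was the largest of the 5 differences. The ratio to *cah-1* changed by 1.05 (95% interval 0.63 to 1.48), that to *cah-2* by 0.85 (0.36 to 1.33) and that to *cah-6* by 0.93 (0.33 to 1.53). In each of the 5 ratios the *vhl-1* libraries lay above the wild type libraries. The exact permutation test of the genotype means (two-sided, 20 arrangements) gave p = 0.1 for each, also after adjustment over the 5 comparisons, which is the smallest p that 3 libraries against 3 allow. Leaving out the second *vhl-1* library gave a difference of 1.13 for *cah-3* and 1.34 for *cah-5*.

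**Figure D3:**
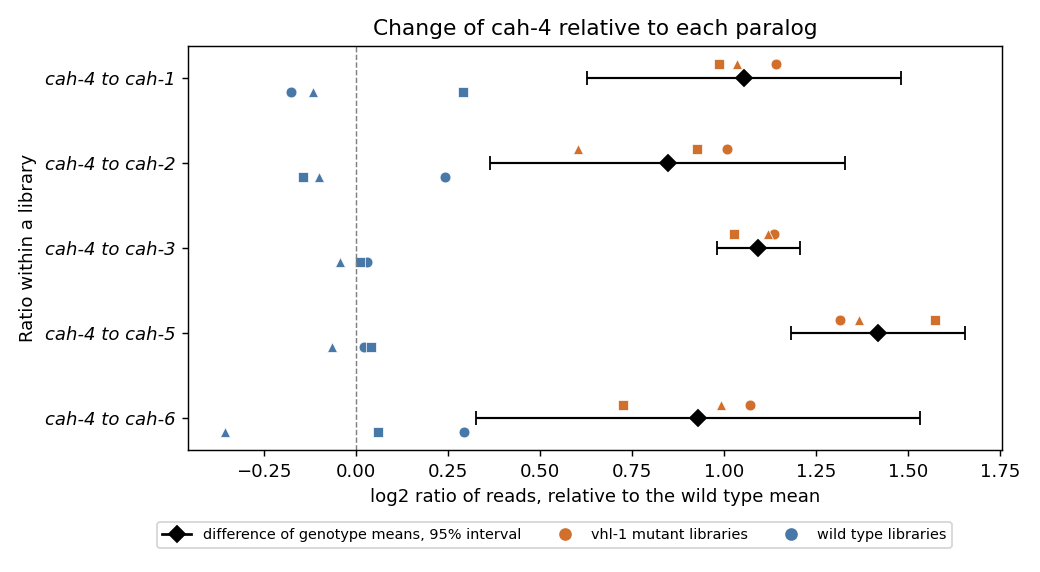
Change of the log2 ratio of *cah-4* reads to the reads of each paralog. Points are libraries, relative to the wild type mean, and diamonds with bars are the difference between genotype means with its 95% interval, from 0.85 for *cah-2* to 1.42 for *cah-5*. The *vhl-1* libraries lie to the right of the wild type libraries in each row.

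The genes beside *cah-4* were examined because of their closeness. *odr-1*, a guanylate cyclase of olfactory neurons, lies 129 bases beyond the end of *cah-4* on the opposite strand and had 20 to 48 reads in a library. Its log2FC was 0.26 (edgeR, adjusted p = 0.93). *R01E6.5*, 4464 bases before *cah-4* on the same strand, had a log2FC of -0.55 (edgeR, adjusted p = 0.72). Neither neighbor was called. The genotypes overlapped for *odr-1* but not for *R01E6.5*, which was lower in each *vhl-1* library, a separation that 14.4% of all tested genes showed.

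The worm also has 2 carbonic anhydrases of the beta class, an unrelated fold that vertebrates lack. *bca-2* (WBGene00013805), on chromosome IV from 17096386 to 17100248, had 33.6, 35.8 and 37.05 CPM in wild type animals and 53.1, 66.7 and 55.7 CPM in *vhl-1* mutants. The genotypes did not overlap, as in 14.4% of all tested genes. *bca-2* rose by a log2FC of 0.72 with an SE of 0.11 (edgeR, adjusted p = 0.042, DESeq2, adjusted p = 0.00012), to 1.65 times its wild type mean. This call was less firm than that of *cah-4*, since edgeR's adjusted p lay between 0.071 and 0.20 whenever any 1 library was left out. *bca-1* (WBGene00000245), on chromosome X from 6201875 to 6204746, had 37.9, 33.2 and 31.3 CPM in wild type animals and 31.6, 40.4 and 30.8 CPM in *vhl-1* mutants, which overlap. Its log2FC was 0.0059 (edgeR, adjusted p = 1.00) and changed sign under several settings. The ratio of *cah-4* to *bca-2* was higher in *vhl-1* mutants by 0.41 on the log2 scale (95% interval 0.30 to 0.53, exact permutation test p = 0.1, the smallest possible).

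Set beside 11 other genes known as HIF-1 targets, the increase of *cah-4* was among the smaller ones. edgeR's test called 10 of the 11 higher and 0 lower, against 0.874% and 0.374% of all tested genes. The median log2FC of the 11 was 2.98, where that of all tested genes was 0.0059. The list was drawn up with results of these libraries known. 10 of the 11 had a higher log2FC than *cah-4*, and *efk-1*, an eEF2 kinase, had a lower one, at 0.86. The largest was that of *sqrd-1*, a sulfide:quinone oxidoreductase, at 5.02. It was followed by *F22B5.4* at 4.72 and by *fmo-2*, a flavin-containing monooxygenase, at 4.56. *nhr-57*, a nuclear hormone receptor, had 3.51, *rips-1* 3.46 and *rhy-1*, a membrane-bound regulator of HIF-1, 2.98. *ethe-1*, a persulfide dioxygenase, had 2.54, *phy-2*, a collagen prolyl hydroxylase, 2.40 and *egl-9* itself 1.99. The genotypes did not overlap in any of the 11, as in 14.4% of all tested genes. *cysl-2*, a cysteine synthase-like enzyme, had a log2FC of 2.04 with an edgeR adjusted p of 0.051 and was called by DESeq2 (adjusted p = 2.08e-07). DESeq2 called all 11 of them, against 3.4% of all genes. In edgeR's test, 7 of the 10 calls held in each of the 6 fits with a library left out, and *phy-2*, *fmo-2* and *efk-1* missed the threshold in some of them. The wild type level showed another order. Per length, *cah-4* had the highest wild type level of these 12 genes, an RPKM of 147, followed by *cysl-2* with 73.3 ± 30.2 and *phy-2* with 72.3 ± 26.3 (SD, n = 3). *sqrd-1* and *fmo-2* had an RPKM of 1.46 ± 0.237 and 0.854 ± 0.390 in wild type animals.

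The substrates of carbonic anhydrase link it to transporters and enzymes that were listed for comparison. Of 21 exchangers of bicarbonate, other anions and protons (*abts*, *sulp* and *nhx* genes and *pbo-4*), 1 was called higher and 0 lower by edgeR's test, against 0.874% and 0.374% of all tested genes, and their median log2FC was -0.018. At an unadjusted p under 0.05 there were 2, against 9.38% of all tested genes. Without the second *vhl-1* library the median log2FC of the exchangers was -0.131. The gene called was *sulp-7*, of the SLC26 family of anion transporters. It had 16.8, 15.96 and 16.7 CPM in wild type animals and 32.7, 35.5 and 33.9 CPM in *vhl-1* mutants, with a log2FC of 1.05 with an SE of 0.09 (edgeR, adjusted p = 0.0050). The genotypes did not overlap, as in 14.4% of all tested genes. The call of *sulp-7* missed the threshold without the second wild type library (edgeR, adjusted p = 0.061) or the third *vhl-1* library (0.064). The other gene at an unadjusted p under 0.05 was *sulp-8*, of the same family, with a log2FC of 0.58 (edgeR, adjusted p = 0.44) and no overlap between the genotypes. Of 21 subunits of the V-ATPase, the proton pump of lysosomes and of the excretory cell, edgeR's test called 0, against 1.25% of all tested genes. At an unadjusted p under 0.05 there were also 0, against 9.38%. DESeq2 called 0 as well, against 3.4% of all genes. The log2FC values of the subunits lay between -0.19 for *unc-32* and 0.25 for *vha-5*, with a median of 0.061. Without the second *vhl-1* library this median was -0.050.

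Enzymes that use bicarbonate, most of them carboxylases, were represented by 6 genes. Of these, edgeR's test called 0, with 3 at an unadjusted p under 0.05, and DESeq2 called 2. Among all tested genes, edgeR's test called 1.25%, 9.38% had an unadjusted p under 0.05, and DESeq2 called 3.4%. The largest changes were those of both subunits of propionyl-CoA carboxylase, the mitochondrial enzyme that turns propionyl-CoA into methylmalonyl-CoA. *pcca-1* had 191.9, 229 and 246 CPM in wild type animals and 337, 454 and 363 CPM in *vhl-1* mutants, a log2FC of 0.79 (edgeR, adjusted p = 0.076, DESeq2, adjusted p = 0.0012). *pccb-1* had 232, 272 and 299 CPM in wild type animals and 357, 457 and 377 CPM in *vhl-1* mutants, a log2FC of 0.57 (edgeR, adjusted p = 0.16, DESeq2, adjusted p = 0.041). The genotypes did not overlap for either subunit, as in 14.4% of all tested genes, and the call depended on the test. They also did not overlap for *mccc-1*, which was slightly lower in *vhl-1* mutants (log2FC -0.094, edgeR, adjusted p = 0.89). The third gene at an unadjusted p under 0.05 was *pyr-1*, which encodes the enzyme that begins pyrimidine synthesis. It lay in the other direction from the 2 subunits, with a log2FC of -0.50 (edgeR, adjusted p = 0.52) and overlapping genotypes. Of 4 genes of carbon dioxide sensing, edgeR and DESeq2 each called 0, and 1 had an unadjusted p under 0.05 in edgeR's test, against 9.38% of all tested genes. That gene, *ets-5*, a transcription factor of the carbon dioxide sensing BAG neurons, had a log2FC of 0.90 (edgeR, adjusted p = 0.43), and *tax-2*, a cyclic nucleotide-gated channel subunit, one of -0.42 (edgeR, adjusted p = 0.90). Both had less than 1 CPM in every library.

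**Figure D4:**
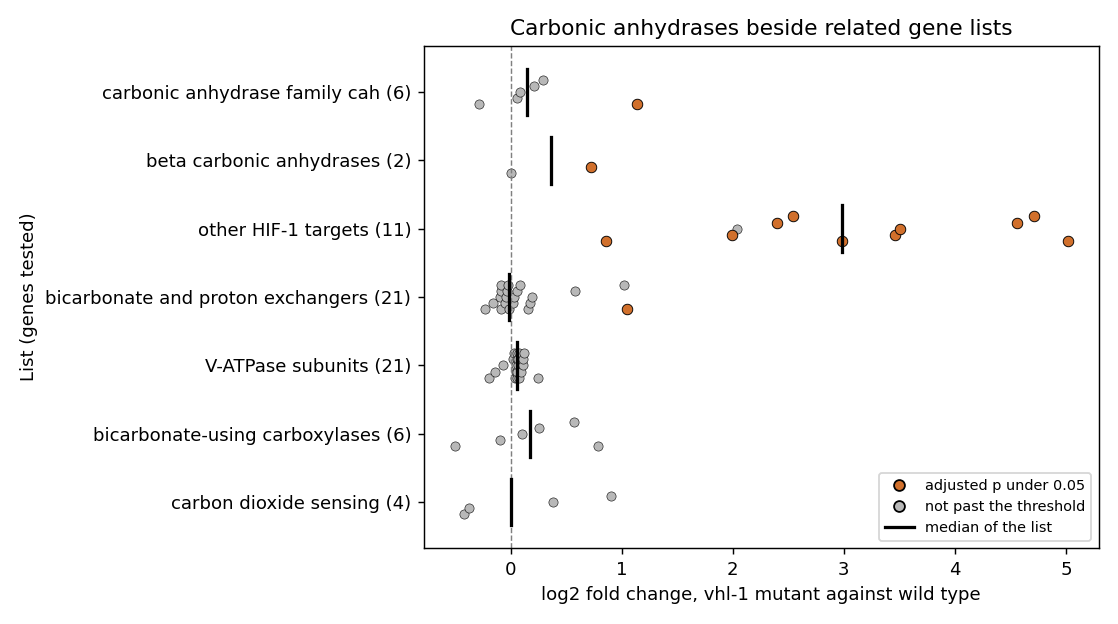
log2FC of each tested gene of 7 lists, *vhl-1* mutants against wild type animals. Orange points passed an adjusted p of 0.05 in edgeR's test, gray points did not, and black lines are list medians. *cah-4* is the orange point of the top row at 1.14, and the other HIF-1 targets have a median of 2.98.

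The genes whose pattern over the 6 libraries was most like that of *cah-4* were found by the root mean square difference between centered log2 CPM values, a measure that takes in the size of the genotype difference as well as its direction. The closest was *mce-1*, the methylmalonyl-CoA epimerase, which acts on the product of propionyl-CoA carboxylase. It differed from *cah-4* by 0.045 on the log2 scale (Pearson's r = 0.997 over 6 libraries). *mce-1* had 38.7, 39.2 and 41.5 CPM in wild type animals and 77.4, 99.8 and 83.4 CPM in *vhl-1* mutants, with a log2FC of 1.13 (edgeR, adjusted p = 0.0088), and missed the threshold without the second wild type library (0.084) or the third *vhl-1* library (0.064). The next were *F43H9.4*, *gst-38*, *ldh-1* and *C03D6.1*, with differences of 0.065, 0.068, 0.088 and 0.090. *gst-38* encodes a glutathione S-transferase and *ldh-1* the lactate dehydrogenase, which regenerates NAD+ in anaerobic glycolysis. *ldh-1* had 89.6, 94.5 and 91.6 CPM in wild type animals and 162, 247 and 164 CPM in *vhl-1* mutants, and its log2FC of 1.05 just missed the threshold (edgeR, adjusted p = 0.051). These genes share the 2-group design with *cah-4*, and most of the likeness is the genotype difference itself.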

How the data were processed

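Sequencing reads of single-end libraries were trimmed with Trim Galore 0.4.3.1, aligned with STAR 2.6.0b and counted per gene with featureCounts 1.6.3 by the authors, who deposited the raw counts, one set for each of 6 libraries. The genome build, annotation release, strand setting and treatment of reads that map to several genes are not given in the sources used here, so reads of similar paralogs could have been divided or dropped. Each set ends with 1 blank row that carries no reads. Symbols, exon lengths and coordinates were taken from Ensembl's WBcel235 annotation (release 115), which held 46603 of the 46778 identifiers. No sequences were used here.

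In R 4.3.3, counts were tested with edgeR 4.0.16 (filterByExpr, TMM, quasi-likelihood test on genotype, Benjamini-Hochberg adjustment over all genes, threshold 0.05). The study's methods name DESeq2, which was run as an alternative (DESeq2 1.42.0). Standard errors follow from the fold change and F statistic. CPM values are TMM-normalized, and levels per kilobase use the union of annotated exons. Ratios of *cah-4* to a paralog were taken as log2 of counts plus 0.5 and tested with an exact permutation test, with 95% intervals from a linear model. The intervals of single genes were added after the data were seen. Other alternatives were library scaling, filters on low counts, a replicate block and leaving out each library. The tests were checked on simulated counts.

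The *cah* genes and the lists were chosen with earlier results of these data known. The text names the *cah* and *bca* genes, their exon neighbors, the called members of each list or else the 2 with the largest change, and the 5 genes closest to *cah-4*. *sulp-8*, *pyr-1*, *mccc-1* and *vit-1* were named outside this rule, for their unadjusted p or because the genotypes did not overlap. The genes beside *cah-4*, *cysl-2*, *ldh-1* in detail and the levels of the HIF-1 targets per length were looked up after values were seen. The gene *mccc-2* had no matching identifier in the counts, and *msd-1* is the symbol of several identifiers and was left out of the sperm list. Replicates were checked for repeated deposits, and every pair of a genotype differed by far more than counting noise (mean chi-square per gene 43.3 or above, where noise gives about 1).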

Additional observations from a re-analysis of the deposited data

How the results depend on the processing

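*cah-4* kept its direction in every fit and its call in the 7 other fits with all libraries, at 1.12 to 1.18. With a library left out its log2 fold change ran from 1.00 to 1.23 (adjusted p 0.011 to 0.099), and 3 of 6 fits missed the threshold. Left-out libraries gave -0.098 to 0.21 for *cah-1*, 0.15 to 0.44 for *cah-2*, -0.13 to 0.16 for *cah-3*, -0.34 to -0.25 for *cah-5* and -0.058 to 0.41 for *cah-6*. For *bca-1* they gave -0.13 to 0.088, and it was -0.0054 with DESeq2 and -0.0030 with its size factors in edgeR. The ratios of *cah-4* to its paralogs and its share of reads moved by less than the spread between replicates, and a pseudocount of 5 or a share per kilobase (a difference of 18.1 percentage points, against 17.9) did the same.

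The number of genes past the threshold, 207, was 650 under DESeq2, which shared 206 of them, 65 under a stricter limit of 0.01 and from 49 to 161 in the fits that left out a library. The cause was not tested. *cah-3*, *cah-4* and *cah-5* had at least 2064 reads in any library, whereas *cah-1* and *cah-2* had as few as 147 and 143.

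The correlation of deviations from the genotype mean between libraries of the same number was 0.59, 0.51 and -0.021. Between libraries of different numbers it lay between -0.57 and 0.26. The replicate numbers may thus pair some of the libraries but not all, and the main fit used no block. With the replicate block edgeR gave 354 genes and DESeq2 909. *cah-4* had 1.13 and 1.12, *bca-1* -0.00043 and -0.010, and of the *cah* genes no call changed. *pcca-1* and *cysl-2* passed in edgeR with the block (adjusted p = 0.040 and 0.0045), so that all 11 HIF-1 targets were called there. Without the block, both also passed with library size alone (0.045 and 0.042) and with no filter (0.044 and 0.019), and *cysl-2* with DESeq2's size factors (0.048).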
